A study of Mus musculus with 12 samples.

Results

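P14 was compared with its neighbours P7 and P28 in GFP-sorted cells of the mouse cerebellum, to find transcripts that were transiently high (a peak) or transiently low (a dip) at that age. The cells came from untreated Aldh1l1-GFP reporter mice on the C57/BL6J background, in which the Aldh1l1 promoter, active mainly in astrocytes, drives green fluorescent protein, and they were taken by fluorescence-activated sorting from dissociated cerebella at 7, 14 and 28 days after birth. All groups carried the same reporter and differed in age, and also in the sex-linked reads of their libraries, as described below. The number of animals behind a library, or whether animals were pooled, was not given in the sources used here. Of 12 libraries in all, 9 entered the comparison (3 each at P7, P14 and P28), and the 3 of P1 served to estimate the spread and as a further reference. Of 24421 gene entries, 15464 had a normalised count of 10 or more in at least 3 libraries and were tested.

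The cerebellar cortex of the mouse takes its adult form in the weeks after birth. Granule neuron precursors divide in the external granular layer and their progeny migrate inward past Bergmann glia, the radial astrocytes of this tissue, while oligodendrocyte precursors leave the cell cycle, become oligodendrocytes and wrap axons with myelin. Myelin is a lipid-rich sheath that needs large amounts of a few structural proteins, of galactolipids and of cholesterol, and its genes are switched on together by transcription factors such as Sox10, Olig2 and Myrf.

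Each comparison was made on log2(normalised count + 1). The first measure was the difference of P14 from the mean of P7 and P28, which is what a straight line between them would give, as the 3 ages are evenly spaced on a log scale. It was called at a limma adjusted p-value under 0.05 with a difference over 0.75. A gene can differ from that mean and still lie between its neighbours, so a peak or dip was called only where P14 lay on the same side of P7 and of P28 by more than 0.75 each and the larger p-value of both comparisons, adjusted over all genes (here the joint adjusted p), was under 0.05. Reads counted on genes ranged from 9470510 to 9856910 in the P14 libraries. They lay between 6399499 and 11328604 in those of P7 and between 7965152 and 10269334 in those of P28. Fewer genes had a read in the P28 libraries (14249 to 14749) than in those of P14 (16197 to 16642) or P7 (17715 to 18051). Pairs of P28 libraries correlated less (0.849 to 0.862) than those of P14 (0.898 to 0.913) or P7 (0.95 to 0.965) on log2 values. What part this has in counts of 0 at P28 and in differences from P28 was not tested. Whether the 3 replicates of an age are separate animals is not said in the labels, so that p-values measure the spread between these libraries, which may be in part technical.

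The DNA upstream of genes with a peak was read from RefSeq promoters (GRCm38.p6). The window of the myelin gene Mobp is printed because it held the motif sought, those of Mog and Mal, which had the largest smaller differences after Cldn11, as examples without it, and that of Ebp because it had the largest difference among the enzymes of cholesterol synthesis. Each runs 5′ to 3′ on the strand of its gene and ends at the base before the annotated gene start, and capitals mark the core sequence bound by SOX factors (ACAAAG, either strand) in the first 3 windows and the NF-Y core (CCAAT, either strand) in the window of Ebp.
Mobp, chr9:120149492-120149706, plus strand: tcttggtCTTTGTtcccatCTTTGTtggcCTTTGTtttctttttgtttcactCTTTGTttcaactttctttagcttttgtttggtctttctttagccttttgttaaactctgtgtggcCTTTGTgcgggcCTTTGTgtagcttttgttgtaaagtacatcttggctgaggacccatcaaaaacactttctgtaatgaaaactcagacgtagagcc
Mog, chr17:37023399-37023648, minus strand: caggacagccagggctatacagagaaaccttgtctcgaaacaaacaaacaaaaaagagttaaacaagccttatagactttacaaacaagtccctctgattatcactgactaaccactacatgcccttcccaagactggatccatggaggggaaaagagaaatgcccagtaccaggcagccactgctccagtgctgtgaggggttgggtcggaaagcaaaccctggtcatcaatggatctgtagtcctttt
Mal, chr2:127656696-127656945, minus strand: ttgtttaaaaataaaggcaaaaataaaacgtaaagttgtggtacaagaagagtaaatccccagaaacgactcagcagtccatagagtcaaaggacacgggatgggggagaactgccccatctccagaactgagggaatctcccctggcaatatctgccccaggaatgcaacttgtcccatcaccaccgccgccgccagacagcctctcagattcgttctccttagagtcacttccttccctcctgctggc
Ebp, chrX:8193513-8193762, minus strand: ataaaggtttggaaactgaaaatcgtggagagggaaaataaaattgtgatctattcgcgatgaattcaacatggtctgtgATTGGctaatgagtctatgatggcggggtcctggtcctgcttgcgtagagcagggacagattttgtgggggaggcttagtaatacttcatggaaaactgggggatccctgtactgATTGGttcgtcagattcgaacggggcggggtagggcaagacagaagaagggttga
Motifs were sought in the whole 250 bases before each start, also where a shorter stretch is printed. The window of Mobp held 6 matches to the SOX core, all on the reverse strand, at 243 to 120 bases before the RefSeq start. It was the only one of the 9 oligodendrocyte-list peaks with a window given that held a match (11.1%). This is near the 12.4% of the 11563 tested genes with a promoter. Over all 27018 genes with a promoter (first entry of each gene) the share was 16.5%. The NF-Y core was present in 13 of the 15 cholesterol synthesis genes with a window, against 34.5% of all genes with a promoter. For this core the share over the tested genes alone was not computed. These matches describe the letters of the windows and were not related to binding.

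At P14, 627 of the 15464 genes (4.05%) were higher than the mean of their neighbours and 267 (1.73%) were lower, 894 in all (5.78%). Among those higher, the P14 mean lay above both neighbours for 542 and between them for 85, and among those lower it lay below both for 225 and between them for 42. The stricter test called 23 peaks (0.149%) and 3 dips (0.0194%). At an unadjusted p-value under 0.05 with the same fold threshold there were 392 peaks (2.53%) and 134 dips (0.867%). Over all genes tested, the median difference of P14 was 0.05 from the neighbour mean, -0.09 from P7 and 0.12 from P28, so that the values below were read against a background close to 0.

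**Figure D1:**
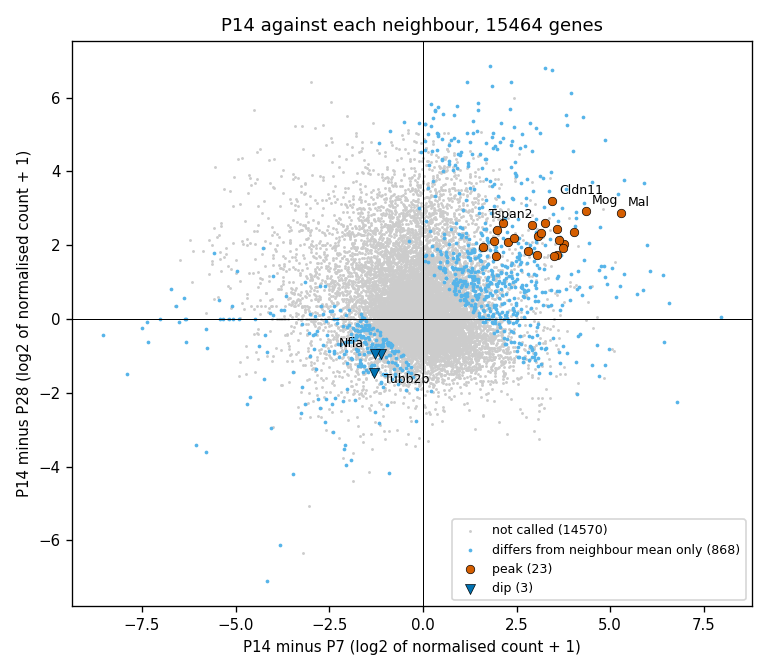
Each point is 1 of the 15464 genes, with the difference of P14 from P7 on the x axis and from P28 on the y axis, both as log2 of normalised count + 1. The 23 peaks lie in the upper right and the 3 dips in the lower left, close to the origin, while the genes that differed from the neighbour mean alone extend along both axes.

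Of the 23 peaks, 12 belonged to the lists of oligodendrocyte genes, which together had 55 members tested. Of these, 35 were called higher at P14, against 4.05% of all genes, and 12 were peaks, against 0.149% of all genes. Of the 55, 0 were called lower by limma, also 0 at an unadjusted p under 0.05 and by edgeR under both scalings, and 1 by DESeq2. The 3 P14 libraries lay above all 6 neighbour libraries for each of the 23 peaks, as for 3.94% of all genes. The peaks were called on these same values, so this describes them and adds no support. The peaks were 1.62 to 5.30 above P7 and 1.70 to 3.21 above P28. For 19 of the 23 the mean at P28 was still above that at P7.

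Cldn11 (chr3:31149920-31164324, plus strand), which encodes the tight junction protein between the turns of the myelin sheath, had 275, 332 and 503 normalised counts at P7, 4113, 4263 and 3459.9 at P14 and 682, 313 and 358 at P28. Its smaller difference was the largest of all peaks, 3.21 against P28, with 3.45 against P7 (joint adjusted p = 0.0068, limma). The libraries of P7 and P28 overlapped.

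Mog (chr17:37010743-37023398, minus strand) encodes a glycoprotein of the outermost myelin surface and had 211, 305 and 325 normalised counts at P7, 5923, 6471 and 4602 at P14 and 571, 995 and 696 at P28. It was 4.34 above P7 and 2.93 above P28 (joint adjusted p = 0.00697, limma). In P1 libraries it stood at 4.31, 20.7 and 12.9, and its P28 libraries lay above those of P7 without overlap.

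Mal (chr2:127633226-127656695, minus strand), a proteolipid of the myelin membrane that sorts lipids and proteins to it, had the largest difference from P7 among the 23 peaks, with 564, 844 and 920.1 normalised counts at P7, 33859, 31688 and 25227 at P14 and 5166, 4260.2 and 3132 at P28. The differences were 5.30 from P7 and 2.87 from P28 (joint adjusted p = 0.0187, limma). The lowest P14 library stood far above the highest of P28, which in turn stood far above P7.

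Mobp (chr9:120149707-120181484, plus strand), a basic protein that stabilises compact myelin and whose window is printed above, had 2257, 2887 and 4021 normalised counts at P7, 30331, 29881 and 20515 at P14 and 5439, 6833 and 3931 at P28, which placed P14 3.16 above P7 and 2.33 above P28 (joint adjusted p = 0.0278, limma). Tspan2 (chr3:102734529-102801513, plus strand), a tetraspanin of the myelin membrane, had 1112, 1031 and 1126 normalised counts at P7, 10460.2, 11824 and 9418 at P14 and 1932, 1848 and 1446 at P28. With 3.27 and 2.61 it had the lowest joint adjusted p-value of all peaks (7.54e-05, limma), and its libraries of one age lay close together. Tshb, a thyrotropin subunit gene, overlaps it on the opposite strand and averaged 13.9 normalised counts at P14.

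Lipid genes of myelin were among the peaks as well. Ugt8a (chr3:125865271-125938619, minus strand), the enzyme that makes galactosylceramide, a main lipid of myelin, had 1142, 1454 and 1425 normalised counts at P7, 10373, 12816 and 7725 at P14 and 2302, 1685 and 1293 at P28 (differences 2.92 and 2.56, joint adjusted p = 0.000145, limma). Fa2h, which hydroxylates the fatty acids of these lipids, had 286, 317 and 410.0 normalised counts at P7, 4984, 4813 and 3659 at P14 and 1093, 2276 and 632 at P28. It stood just inside the threshold (joint adjusted p = 0.0491, limma), with P28 libraries that ranged from 632 to 2276. Aspa, which frees acetate from N-acetylaspartate for lipid synthesis in oligodendrocytes, had 55.7, 51.0 and 64.3 at P7, 1027, 920.3 and 509 at P14 and 224, 189 and 162 at P28 and was as close to the threshold (joint adjusted p = 0.0451, limma).

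Gsn and Pllp were further myelin peaks. Gsn, an actin-severing protein of oligodendrocytes, had 280.3, 402 and 424 at P7, 4415, 5791 and 3228 at P14 and 1032, 882 and 561 at P28 (joint adjusted p = 0.0068, limma). Pllp, plasmolipin, had 327, 262 and 386 at P7, 2982, 2869 and 2174 at P14 and 759.9, 849 and 795 at P28 (joint adjusted p = 0.00427, limma). Both came down at P28 to levels above those of P7 in every library.

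**Figure D2:**
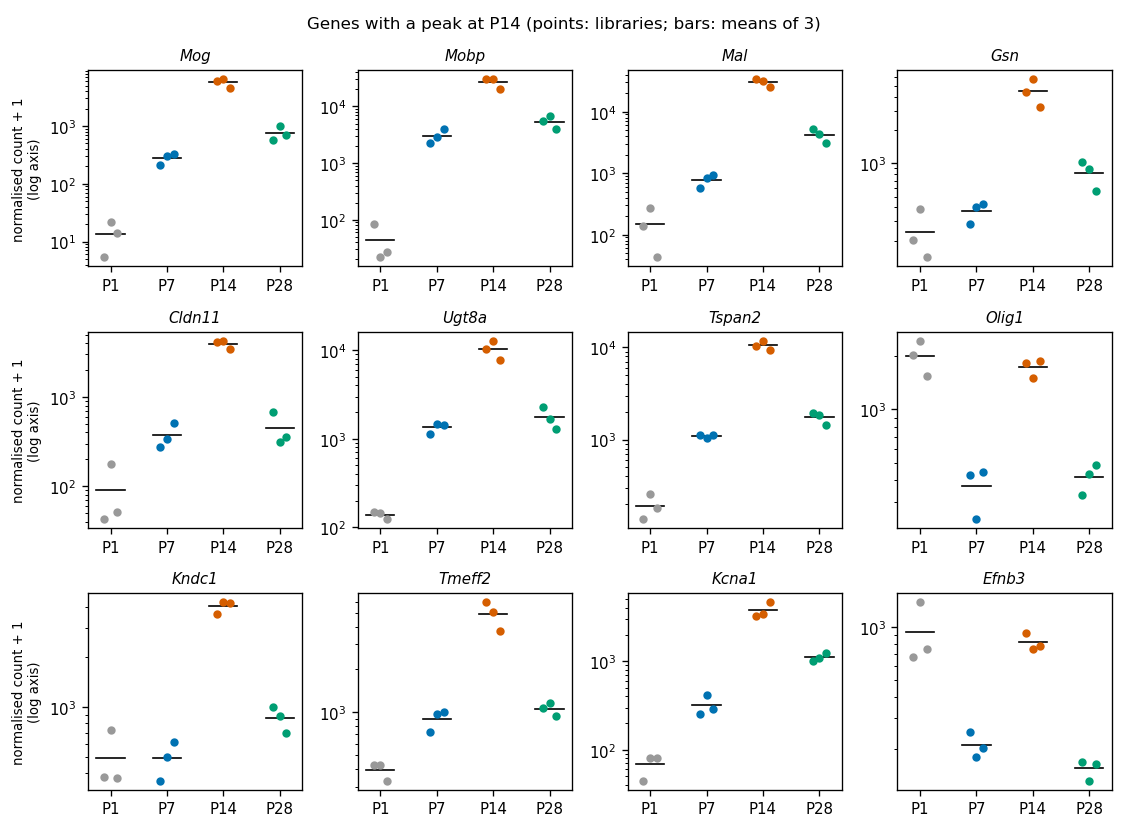
Normalised count + 1 on a log axis by age for 12 peaks, 1 point per library (3 per age) and a bar at the mean. All P14 libraries sit above all libraries of P7 and P28, whereas for Olig1 and Efnb3 the P1 libraries reach the P14 level.

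Of the 20 genes in the list of myelin and its assembly, 19 were called higher than the neighbour mean, where 4.05% of all genes were, with a median difference of 2.89. The P14 mean lay above both neighbours for 18 of them, where it did for 24.8% of all genes, and all 3 P14 libraries above all 6 neighbour libraries for 18, as for 3.94% of all genes. Of the 9 called higher that were not peaks, Mag (229, 343 and 372 at P7, 2667, 2756 and 2108 at P14 and 722, 520.1 and 536 at P28) and Opalin (2.39, 10.5 and 3.10 at P7, 387, 455 and 226 at P14 and 58.5, 48.4 and 208 at P28) lay above all 6 neighbour libraries without passing the joint test (joint adjusted p = 0.4 and 0.667, limma). Mbp, the myelin basic protein, differed mainly from P7, with 9820.4, 9324 and 14961 at P7, 100186, 125612 and 212767 at P14 and 85741, 95728 and 67726 at P28, and its difference from P28 was 0.76 (joint adjusted p = 0.935, limma). Cnp, the cyclic nucleotide phosphodiesterase of myelin, had 2092, 1989 and 2613 at P7, 15493, 16012 and 13719 at P14 and 8023, 9721 and 9121 at P28, with a difference from P28 of 0.75 (joint adjusted p = 0.102, limma). Plekhb1 was the exception among those called, with 317, 308 and 387 at P7, 2542, 2504 and 2618 at P14 and 4720.3, 4661 and 4175 at P28, and thus went on rising to P28. Cntn2, an adhesion protein of neurons as well as of myelinated axons, was the member not called, with 1456, 3154 and 1886 at P7, 1875, 1793 and 2101 at P14 and 1023, 1016 and 778 at P28 (difference 0.47 ± 0.37 SE, adjusted p = 0.51, limma).

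The summed counts of the 20 myelin genes made up 0.360 to 0.517% of all counts in the P7 libraries, 3.93 to 4.28% at P14 and 0.961 to 1.44% at P28, after 0.0431 to 0.0577% at P1. The groups did not overlap. Since these are shares of a bulk library, fewer cells of a type and less RNA per cell cannot be told apart, here and in all results that follow.

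Mature oligodendrocyte markers outside that list were higher at P14 in 8 of 9 cases, against 4.05% of all genes, with a median of 2.22, but 1 of them, Aspa, was a peak. Trf, transferrin, which oligodendrocytes make in bulk, had 783, 942 and 888 at P7, 14171, 16581 and 10005 at P14 and 8513, 16630.4 and 5747 at P28, and 1 of its P28 libraries reached the top of the P14 range. Apod, a lipid carrier, had 1309, 1883 and 2278 at P7, 9755, 9848 and 7803 at P14 and 6467, 5713 and 3424 at P28 and stood higher than the neighbour mean by 1.60 ± 0.29 SE (adjusted p = 0.00498, limma). Gjb1, the gap junction protein connexin 32, had 16.7, 13.1 and 13.2 at P7, 282, 548 and 275 at P14 and 52.6, 92.0 and 2.70 at P28, the largest difference of the list at 4.12 ± 0.97 SE (adjusted p = 0.021, limma).

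Transcription factors of the lineage were called higher as well in 6 of 10 cases, against 4.05% of all genes, with a median of 1.92. Olig1 (chr16:91269772-91271933, plus strand), needed for the maturation of oligodendrocytes, was the peak among them, with 424, 239.5 and 444 normalised counts at P7, 1822, 1502 and 1874 at P14 and 327, 429 and 487 at P28 (differences 2.27 and 2.07, joint adjusted p = 0.00313, limma). It had already been high at P1, with 2027, 2446 and 1542, in the range of P14. Sox10, which binds and activates myelin genes, had 241, 308 and 430.2 at P7, 1053, 1635 and 1180.5 at P14 and 514, 164 and 168 at P28 (difference from the neighbour mean 2.19 ± 0.36 SE, adjusted p = 0.00254, and joint adjusted p = 0.0717, limma). Myrf, the membrane-bound regulator of the mature myelin programme, had 408, 503 and 574 at P7, 2003, 2465 and 2006 at P14 and 514, 948 and 214 at P28 (difference 2.16 ± 0.36 SE, adjusted p = 0.00297, and joint adjusted p = 0.0589, limma). Both lay above all 6 neighbour libraries and missed the joint threshold.

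Nkx6-2 and Zfp488, later factors of the lineage, were called higher than the neighbour mean at 3.01 and 2.31, at levels of 204, 83.6 and 61.9 and 664, 684 and 551 at P14. Sox8, a relative of Sox10 that astrocytes also express, was called at 0.79, and its libraries of P14 (2353, 2423 and 2105) and of P28 (1850.1, 2506 and 3075) overlapped. Olig2 also lay above all 6 neighbour libraries, with 628, 883 and 1112 at P14, and was not called (difference 1.68 ± 0.70 SE, adjusted p = 0.177, limma), its P28 libraries ranging from 20.3 to 611.

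Markers of earlier stages had smaller median differences. Of 12 markers of newly formed oligodendrocytes, 2 were called higher, against 4.05% of all genes, with a median of 0.41. These were Enpp6, with 1095, 1259 and 1212 at P7, 2230.3, 2849 and 2328 at P14 and 688, 747 and 173 at P28 (difference 1.75 ± 0.44 SE, adjusted p = 0.0293, limma), and Gpr17, a receptor of precursors about to differentiate, with 1217, 1577 and 1725 at P7, 2846, 2735 and 3577 at P14 and 699, 1901 and 1228 at P28 (difference 1.19 ± 0.27 SE, adjusted p = 0.0167, limma). The 2 most abundant members, Tns3 and Itpr2, differed by 0.16 and 0.14 (adjusted p = 0.485 and 0.658, limma). Of 4 markers of oligodendrocyte precursors, 0 were called by limma, also 0 at an unadjusted p under 0.05, by edgeR and by DESeq2, and the median was 0.75. Pdgfra, the growth factor receptor that defines them, declined with age from 3005, 4772 and 3161 at P1 through 1276, 1349 and 1219 at P7 and 805, 729.9 and 624 at P14 to 475, 231 and 352 at P28. Lhfpl3, the next most abundant, had 588, 407 and 481 at P7, 528, 456 and 419 at P14 and 263, 191 and 331 at P28 (adjusted p = 0.313, limma). For Cspg4 and C1ql1 the P14 mean lay above both neighbours, with overlap of libraries. Cspg4 had 124, 178 and 227 at P7, 249, 154 and 140 at P14 and 48.2, 0 and 207 at P28 (difference 1.53, adjusted p = 0.466, limma). C1ql1 had 163, 174 and 200 at P7, 213, 258 and 193 at P14 and 26.3, 53.1 and 145 at P28 (difference 1.09, adjusted p = 0.246, limma).

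The enzymes of cholesterol synthesis supply the sterol of myelin. Of 20 members, 3 were called higher, against 4.05% of all genes, the P14 mean lay above both neighbours for 12, where it did for 24.8% of all genes, and the median difference was 0.49. Hmgcs1, the synthase ahead of the rate-limiting step, had 4413, 3587 and 4467 at P7, 9413, 8988 and 6919.8 at P14 and 5638, 6158 and 4710.1 at P28 (difference 0.81 ± 0.16 SE, adjusted p = 0.00788, limma), with no overlap between P14 and its neighbours. Ebp, a sterol isomerase whose window is printed above, had 127, 122 and 140.3 at P7, 295, 444 and 443 at P14 and 130.1, 82.6 and 315 at P28 (difference 1.47 ± 0.40 SE, adjusted p = 0.039, limma). As peaks, 0 were called by limma after adjustment, 2 at an unadjusted p under 0.05 and 0 by edgeR and DESeq2. Of 7 genes of sterol regulation and uptake, 0 were called by limma, by edgeR, by DESeq2 or at an unadjusted p under 0.05, with a median of 0.07.

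Of 13 genes of fatty acid synthesis and desaturation, 3 were called higher, against 4.05% of all genes, with a median of 0.12, and all 3 were elongases. Elovl1, which extends very long saturated chains, had 213, 249 and 227 at P7, 1059, 731 and 554 at P14 and 279, 136 and 323 at P28 (difference 1.71 ± 0.31 SE, adjusted p = 0.00503, limma), Elovl7 was called at 1.60 and Elovl6 at 0.86. The 2 most abundant members, the desaturases Scd2 and Fads1, had 15319, 17656 and 12957 and 3392, 4017 and 2431 at P14 and 22092, 20954 and 27002 and 6385, 9656 and 9937 at P28 (adjusted p for P14 against P28 = 0.0593 and 0.00314, limma).

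Outside the oligodendrocyte lists there were 11 peaks, of which 0 belonged to the lists of granule neuron (8 tested) or synaptic vesicle genes (24 tested). With peaks at 0.149% of all genes, 0 in lists of this size is near that share. Kndc1 (chr7:139894696-139941537, plus strand), an exchange factor that limits dendrite growth and is known from cerebellar granule cells, had 359.9, 499.9 and 613 normalised counts at P7, 3656, 4289 and 4266 at P14 and 999.6, 885 and 702 at P28 (differences 3.08 and 2.25, joint adjusted p = 0.00232, limma). Tmeff2 (chr1:50900647-51187270, plus strand), a membrane protein with follistatin and EGF-like modules, had 723, 969.8 and 999.9 normalised counts at P7, 5921, 5047 and 3719 at P14 and 1062, 1165 and 939 at P28 (differences 2.43 and 2.19, joint adjusted p = 0.000203, limma). Each of them was called a peak with any single library left out, as were Tspan2, Ugt8a and Olig1.

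Kcna1, a voltage-gated potassium channel of axons, had 249, 415 and 286 at P7, 3222, 3442 and 4644 at P14 and 1011, 1087 and 1244 at P28 (joint adjusted p = 0.0153, limma). Syt4, a synaptotagmin of neurons and glia, had 126, 183 and 172 at P7, 1429, 1777 and 3061 at P14 and 545, 533 and 315 at P28 (joint adjusted p = 0.0187, limma). Tmem163, a zinc transporter, had 291, 302 and 277 at P7, 916, 1459.9 and 1552 at P14 and 269, 197 and 172 at P28 (joint adjusted p = 0.00427, limma). For Kcna1 the P28 libraries remained above those of P7, whereas for Tmem163 the P28 mean was the lower of both neighbours. Tmem163 and Mgat5 overlap on opposite strands by 1791 bases, and Mgat5 was not called.

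Efnb3, an ephrin ligand known from neurons and myelinating cells, had 248, 179 and 202 at P7, 933, 747 and 781 at P14 and 168, 131 and 164 at P28 (joint adjusted p = 0.00736, limma). At P1 it stood at 671, 1393 and 749.7, and with Olig1 it was 1 of 2 peaks whose P1 mean was above the P14 mean, while the other 21 had their highest mean at P14. Sox2ot, the long non-coding transcript around Sox2, had 670.4, 448 and 951 at P7, 2369, 2487 and 2572 at P14 and 830.1, 643 and 350.3 at P28 (joint adjusted p = 0.0138, limma). Sox2 lies inside it on the same strand and was not called, with a mean of 395 at P14 between 357 at P7 and 950.1 at P28.

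Of the remaining peaks, Grb14, an adaptor of the insulin receptor, was 2.79 above P7 and 1.83 above P28. Lgi3, a secreted partner of ADAM receptors, was 3.50 and 1.71 above them. Lrrtm3, a synaptic organiser, was 1.95 and 1.70 above them, and it lies within Ctnna3 on the opposite strand, a gene that went on rising to P28. Xrcc3, a recombination repair protein, was 1.62 and 1.94 above them and overlaps Klc1 on the opposite strand by 4653 bases. The joint adjusted p-values of Grb14, Lgi3, Lrrtm3 and Xrcc3 were 0.0187, 0.0371, 0.0131 and 0.0449 (limma). Whether reads were counted by strand was not stated, so these overlaps leave the share of each gene uncertain.

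At the edge of the threshold, Aspa, Fzd3 and Fa2h were the last called, with joint adjusted p-values of 0.0451, 0.0491 and 0.0491, and Prkcz, Tppp and Hs3st1 the first not called, at 0.0519, 0.0526 and 0.0526.

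The dips were fewer and shallower. Tubb2b (chr13:34126748-34130466, minus strand), a beta-tubulin of young neurons and radial glia, had 6132, 4459 and 6131 normalised counts at P7, 2189, 2461 and 2067 at P14 and 5378, 6245 and 7081 at P28, -1.30 against P7 and -1.47 against P28 (joint adjusted p = 0.00625, limma). Every P14 library was lower than every neighbour library, and on the log2 scale the group was 2.47-fold lower than P7 and 2.77-fold lower than P28. The family of beta-tubulins has near-identical members, and how reads that fit several genes were counted was not given in the sources used here.

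Nfia (chr4:97772734-98118874, plus strand), a transcription factor that sets astrocyte identity and is also used by granule neurons, had 13536, 11038 and 13701 normalised counts at P7, 5058, 5320.0 and 5397 at P14 and 9249, 9725 and 11519 at P28, -1.27 against P7 and -0.94 against P28 (joint adjusted p = 0.0068, limma). E130114P18Rik, which overlaps it on the opposite strand by 5345 bases, was likewise lower at P14 (-0.99, adjusted p = 0.0493, limma). Fzd3 (chr14:65192449-65262463, minus strand), a Frizzled receptor of planar polarity signalling used in axon growth, had 3984, 3148 and 4136 normalised counts at P7, 1962, 1635 and 1551 at P14 and 3482, 3159.8 and 3306 at P28, -1.13 against P7 and -0.96 against P28 (joint adjusted p = 0.0491, limma). All 3 dips had a P14 mean below that of P1 as well, so P14 was the lowest of the 4 ages.

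**Figure D3:**
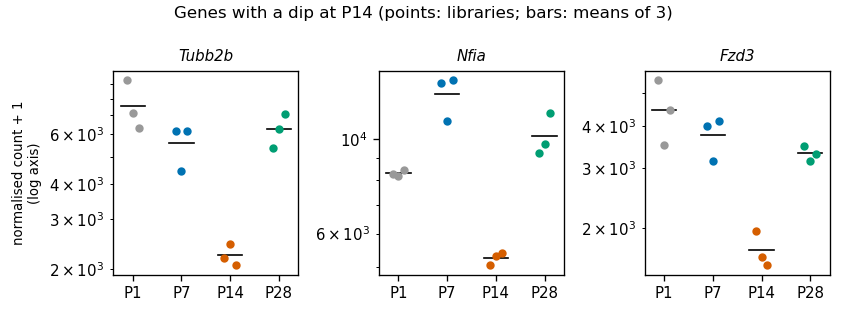
Normalised count + 1 on a log axis by age for the 3 dips, 1 point per library (3 per age) and a bar at the mean; each panel has its own range. The P14 libraries of Tubb2b, Nfia and Fzd3 lie below all libraries of the other ages.

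Genes that differed from the neighbour mean while lying between both neighbours show a change of pace and not a peak. Of the 85 higher ones, 78 rose from P7 to P14 and changed less from P14 to P28, with a median P14 minus P7 of 2.85 and a median P14 minus P28 of -0.68, and 7 fell mainly after P14. Fam107a (chr14:8296274-8318023, minus strand), an actin-bundling protein of astrocytes, had 277, 219 and 312 normalised counts at P7, 21189, 24902 and 23159.5 at P14 and 29554, 38624 and 38887 at P28, so that most of its rise was complete by P14 (difference from the mean 2.90 ± 0.22 SE, adjusted p = 8.77e-06, limma). Dao, the D-amino acid oxidase of cerebellar astrocytes, had 3.98, 2.62 and 7.75 at P7, 591, 745 and 479 at P14 and 3206, 2992 and 2375 at P28. It rose in both intervals, with P14 minus P7 at 6.79 and P14 minus P28 at -2.25 (difference from the mean 2.27 ± 0.49 SE, adjusted p = 0.0124, limma).

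Smim18 and Otx1 were of the other kind, present at P7 and P14 and nearly lost at P28. Smim18 had 37.4, 57.6 and 82.9 at P7, 24.4, 54.0 and 108 at P14 and 0, 0 and 1.35 at P28. Otx1, a homeobox gene, had 60.5, 77.2 and 38.8 at P7, 66.7, 41.3 and 22.8 at P14 and 0, 0 and 0 at P28, and since no read was seen at P28 the P14 mean was at least 32.8-fold higher, with 3 reads over the group as the limit that a count of 0 allows. Of the 42 lower genes that lay between their neighbours, or level with 1 of them, 41 fell from P7 to P14 and changed less afterwards.

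Crabp1, Neurog1, Aldh1b1 and Tfap2c led these, and all had few or no reads from P14 on. Crabp1, a retinoic acid binding protein, had 136, 85.1 and 183 at P7 and 0 in all 6 later libraries, at least 126-fold lower at P14 by the same limit. Neurog1, a proneural factor of inhibitory lineages, had 82.0, 49.7 and 131 at P7 and 0 afterwards, at least 82.0-fold lower. Aldh1b1, a mitochondrial aldehyde dehydrogenase, had 79.6, 64.1 and 99.2 at P7 and 0 afterwards, at least 75.9-fold lower. Tfap2c had 142, 58.9 and 221 at P7 and 1 read in 1 P14 library. For genes without reads at both later ages, the call against the mean marks a loss that came before P14.

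Markers of granule neurons, the small excitatory cells that fill the inner cerebellar cortex, were higher at P14 in 7 of 8 cases, against 4.05% of all genes. Their median was 2.82, and the P14 mean lay above both neighbours for all 8, as for 24.8% of all genes. As peaks, 0 were called by limma after adjustment, 2 at an unadjusted p under 0.05 and 0 by edgeR and DESeq2. Their summed share of counts was 0.118 to 0.230% in the P14 libraries, above the 0.0106 to 0.0250% of P7 and the 0.0775 to 0.0882% of P28. Cbln3, a cerebellin subunit that granule cells secrete at their synapses, had 49.4, 43.2 and 31.0 at P7, 2622, 3641 and 6357 at P14 and 2834, 2649 and 3358 at P28 (difference 3.49 ± 0.28 SE, adjusted p = 1.27e-05, limma). Gabra6, the GABA receptor subunit that defines mature granule cells, had 12.7, 51.0 and 48.1 at P7, 1433, 2196 and 3285 at P14 and 1011, 799.7 and 872 at P28 and Fat2, a cadherin of their axons, 438, 1416 and 705 at P7, 4071, 4489.6 and 6750.4 at P14 and 2655, 3194 and 2818 at P28. Both of these lay above all 6 neighbour libraries. Whether granule neurons among the sorted cells had a part in peaks such as Kndc1 or Kcna1 was not tested.

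Of 24 genes of the synaptic vesicle, 8 were higher, against 4.05% of all genes, with a median of 0.91, and 18 had a P14 mean above both neighbours, against 24.8% of all genes. As peaks, 0 were called by limma after adjustment, 5 at an unadjusted p under 0.05, 0 by edgeR and 2 by DESeq2. Snap25, the membrane SNARE of nerve endings, had 2105, 2033 and 2771 at P7, 15942, 18245 and 30596 at P14 and 10057, 14905 and 13292 at P28 (difference 1.95 ± 0.23 SE, adjusted p = 0.000266, limma). Sv2a, a vesicle glycoprotein, had 349.5, 348 and 398 at P7, 807, 1344 and 967 at P14 and 439.9, 368 and 430.0 at P28. Both exceeded all 6 neighbour libraries at P14 without a joint adjusted p-value under 0.05 (0.644 and 0.0851, limma). Calb2, calretinin, 1 of 3 markers of unipolar brush cells and also found in granule cells, had 58.1, 22.2 and 27.1 at P7, 615, 889.7 and 1273 at P14 and 232, 354 and 529 at P28 (difference 3.02 ± 0.44 SE, adjusted p = 0.0011, limma).

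Astrocyte markers are genes of the cell type for which the cells were sorted. Of 20, 9 were called higher than the neighbour mean, against 4.05% of all genes, yet for 17 the P14 mean lay between its neighbours, as for 52.7% of all genes, and the median of 0.75 came from a difference of 2.13 from P7 against -1.01 from P28. Their summed share climbed from 0.595 to 1.07% of counts at P7 through 2.44 to 2.88% at P14 to 4.56 to 4.90% at P28. Slc1a3, the glutamate transporter GLAST of Bergmann glia, had 12679, 6854 and 11879 at P7, 56504, 72149 and 50269.7 at P14 and 107586, 124670.0 and 132264 at P28, and Slc1a2, the transporter GLT-1, 9132, 4844 and 9051 at P7, 40733, 41172 and 38590.1 at P14 and 86809, 82296 and 93632 at P28. Aldoc, the aldolase of astrocytes, had 2762, 1171 and 2184 at P7, 19622, 21436 and 19172 at P14 and 47356, 52878 and 68203 at P28. All 3 rose in both intervals, by more in the first on the log2 scale.

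For 3 astrocyte markers the P14 mean did not lie between its neighbours. Gfap, the filament protein of reactive and fibrous astrocytes, had 1773, 1119 and 1439 at P7, 1538, 1447 and 1078 at P14 and 2740.1, 2056 and 3399.7 at P28 (difference -0.54 ± 0.26 SE, adjusted p = 0.25, limma), and Cst3, cystatin C, had 2689, 2146 and 2603 at P7, 9396, 8124 and 9192 at P14 and 8444, 7467 and 9355 at P28 (difference 0.97 ± 0.13 SE, adjusted p = 0.000596, limma). The P14 libraries of both overlapped with neighbour libraries. Slc6a11, the glial GABA transporter GAT-3, had 5318, 1716 and 4082 at P7, 12827, 6223 and 8228 at P14 and 2347, 4041 and 4814 at P28, above all 6 neighbour libraries at P14 (difference 1.33 ± 0.33 SE, adjusted p = 0.0264, and joint adjusted p = 0.345, limma). Its P1 level of 18825, 21043 and 13279.6 was higher still. Aldh1l1, whose promoter drives the reporter, had 1985, 936 and 1488 at P7, 1834, 1978 and 1824 at P14 and 2451, 3338 and 2974 at P28 and did not pass the test against the neighbour mean (difference -0.10 ± 0.21 SE, adjusted p = 0.836, limma). The astrocyte markers Slc1a3, Slc1a2 and Aldoc were thus abundant at each of the 3 ages, beside the markers of other cell types described here.

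Of 6 Bergmann glia markers, 2 were called higher and 1 lower, against 4.05% and 1.73% of all genes, with a median of 0.40. Gdf10 (1687, 869 and 1605 at P7, 10078, 14130.0 and 9217 at P14 and 12229, 12007 and 14328 at P28) and Timp4 (925, 541 and 905 at P7, 5550.5, 5815 and 5130.1 at P14 and 12092, 9696 and 13915 at P28) were the higher ones. Fabp7, the brain lipid-binding protein of radial glia and young astrocytes, was the lower one, with 7418, 3433 and 6715 at P7, 2565, 3305 and 1834 at P14 and 4859, 4569 and 6215 at P28, so that it fell to P14 and stood higher again at P28 (difference -1.10 ± 0.23 SE, adjusted p = 0.0104, and joint adjusted p = 0.18, limma). At P1 it had been the highest, with 15797, 16664 and 15145. The P14 libraries lay below all 6 neighbour libraries.

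**Figure D4:**
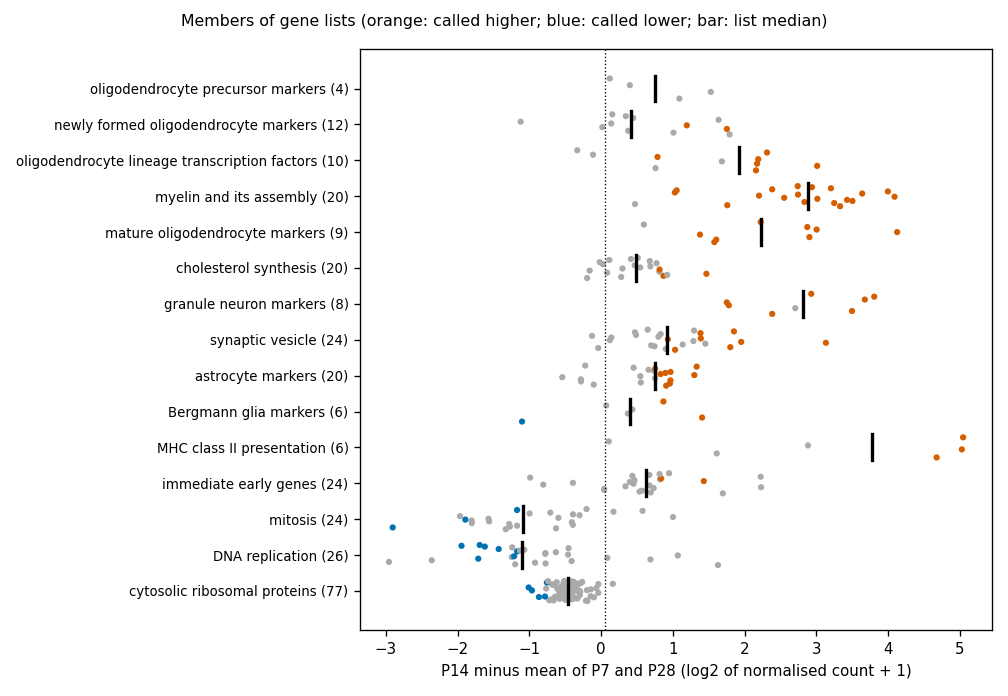
Difference of P14 from the mean of P7 and P28 (x axis, log2 of normalised count + 1) for each tested member of 15 gene lists, with the number of members in brackets; orange points were called higher, blue points lower and grey points neither, the bar is the list's median and the dotted line the median of all genes at 0.05. MHC class II, myelin, granule neuron and mature oligodendrocyte genes have the highest medians of the lists drawn, and replication, mitosis and ribosomal protein genes to the left.

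Genes of cell division were highest at P7 among the 3 ages in the summed share of the mitosis list given below. Of 26 DNA replication genes, 7 were called lower, against 1.73% of all genes, with a median of -1.10 from the neighbour mean, -2.38 from P7 and 0.21 from P28. Mcm4, a subunit of the replicative helicase, had 928, 869 and 954 at P7, 408, 194 and 211 at P14 and 439.9, 251 and 508 at P28 (difference -1.21 ± 0.28 SE, adjusted p = 0.0173, limma), and Pcna, the sliding clamp, 2073, 1858 and 1851 at P7, 759, 984 and 607 at P14 and 834, 853 and 559 at P28 (adjusted p = 0.0619, limma). Rrm1, the large subunit of ribonucleotide reductase, had 893, 859 and 808 at P7, 236, 106 and 179 at P14 and 235, 229 and 519 at P28. Its P14 libraries overlapped with those of P28 alone.

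Of 24 mitosis genes, 3 were lower, against 1.73% of all genes, and for 23 the P14 mean lay between its neighbours, as for 52.7% of all genes. Mki67, the Ki-67 protein of dividing cells, had 9915, 13819 and 10897 at P7, 579, 307 and 296 at P14 and 30.7, 9.44 and 18.9 at P28, with P14 minus P7 at -4.93 and P14 minus P28 at 4.33, and Birc5, survivin, had 207, 317 and 229 at P7, 0, 5.29 and 3.26 at P14 and 1.46, 2.36 and 0 at P28. The summed share of the mitosis genes was 0.0126 to 0.0220% in the P14 libraries, below the 0.343 to 0.463% of P7 and above the 0.00135 to 0.00372% of P28. Markers of granule neuron precursors (6 members) and of differentiating granule neurons (8 members) had 0 calls by limma, edgeR or DESeq2, and 1 and 2 at an unadjusted p under 0.05. Dcx, doublecortin of migrating neurons, fell from 8070.4, 5986 and 8423 at P7 to 532, 441 and 636 at P14 and 168, 23.6 and 62.2 at P28.

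Inhibitory interneuron markers were lower in 3 of 9 cases, against 1.73% of all genes, with a median of -1.40. Tfap2b, an AP-2 factor that specifies these cells, had 4575, 1864 and 4317 at P7, 69.9, 146 and 41.3 at P14 and 30.7, 57.8 and 81.1 at P28 (difference -2.47 ± 0.58 SE, adjusted p = 0.0206, limma), and Pax2, which marks their precursors, 2059, 908 and 2154 at P7, 24.4, 10.6 and 35.8 at P14 and 11.7, 43.6 and 1.35 at P28 (adjusted p = 0.0747, limma). Both were high at P7 and low at both later ages. Of 9 Purkinje cell markers, 1 was called higher, against 4.05% of all genes, with a median of 0.63.

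**Figure D5:**
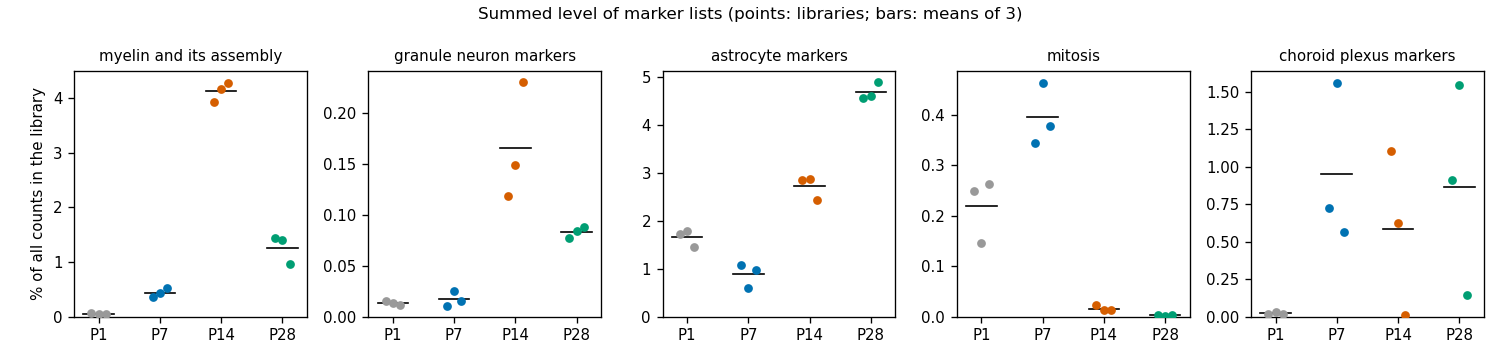
Share of all counts in a library (percent, y axis from 0, with its own range in each panel) taken by the members of 5 marker lists at each age, 1 point per library (3 per age) and a bar at the mean. Myelin and granule neuron shares are highest at P14, the astrocyte share rises from P7 to P28, the mitosis share is highest at P7, and the choroid plexus share spreads widely within P7, P14 and P28.

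Some features of the libraries differed between the ages. Xist, expressed from the inactive X chromosome of female cells, had 24667, 90.3 and 25471 at P7, 21736, 18254 and 22155 at P14 and 24.8, 62.5 and 21061 at P28, and the Y-linked Ddx3y had 2.39, 709 and 3.88 at P7, 1.06, 0 and 0 at P14 and 1041, 645 and 6.76 at P28. All 3 P14 libraries thus had Xist and almost no Y-linked reads, as had 2 of the 3 libraries of P7 and 1 of P28. The P1 libraries, with 28.9, 20.7 and 14.4 for Xist and 721, 837 and 624 for Ddx3y, were of the other kind. The make-up by sex therefore differed between the ages, and effects of sex and of age cannot be fully told apart in this comparison. Ddx3y was called lower at P14 (adjusted p = 0.0493, limma). A fit on libraries with Xist above the summed Y-linked genes leaves 2 at P7 and 1 at P28. The spread of that 1 library is assumed to be that of the other groups, so counts of calls from this fit are not given. It shares its P14 libraries with the main fit and cannot separate sex from age. The median difference over all genes was 0.05 in both fits.

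Malat1, a nuclear non-coding RNA, had 316774, 265895 and 301627 at P7, 698157, 571227 and 639707 at P14 and 414051, 392508 and 515773 at P28 (difference 0.82 ± 0.17 SE, adjusted p = 0.0089, limma), and its part in the other differences was not tested. Choroid plexus markers ranged from 0.0132 to 1.10% of counts among the P14 libraries and from 0.145 to 1.54% among those of P28, and 0 of 10 were called by limma, edgeR, DESeq2 or at an unadjusted p under 0.05. The calls rested more on some P14 libraries than on others. Without replicate 1, 2 or 3 of P14 there were 7, 7 and 14 peaks and 0, 1 and 2 dips. All of the 23 peaks except Fa2h and Lgi3, and all dips except Fzd3, were also called by edgeR under both scalings and by DESeq2.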

How the data were processed

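RNA of GFP-sorted cerebellar cells was sequenced in 12 libraries, 3 per age (P1, P7, P14, P28). Reads were mapped by the authors with STAR (version 2.5.0a, per the labels) on mm10, counted on UCSC transcripts with GenomicAlignments and normalised with DESeq2 (version 1.30.1 per the labels). How shared reads were counted, and whether strand was used, is not given in the sources used here. The deposited values are a signal on the scale of normalised counts: the authors scaled every library by its own size factor. Every column name carries P28, and ages were taken from the labels. Dividing by each library's smallest value gave whole reads for 100% of the values (within 0.02), which served for depth and for the count tests. A count of 0 allows up to 3 reads per group or library at 95% confidence, for counting error only.

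limma (version 3.58.1, R 4.3.3) was fitted on log2(value + 1) with a mean per age over all 12 libraries and a variance trend, for genes that reached a value of 10 in 3 or more libraries. For low genes this scale understates fold changes. p-values were two-sided and Benjamini-Hochberg adjusted over all genes tested, with a log2 threshold of 0.75. The peak test used the larger p-value of both comparisons, set to 1 where their directions differed. On simulated counts, with 100 genes raised and 100 lowered at P14 by 2 (log2), the contrast recovered 74 and 74 with 11 of the unchanged genes called, among 15535 genes tested, and the peak test 58 and 62 with 0 unchanged called. The unchanged genes had the same mean at every age. The simulation thus held no gene that differed from a single neighbour, and it cannot show how often the peak test calls such genes. It also gave every age the same spread, whereas pairs of P28 libraries correlated less than those of P7 or P14. Its rates may therefore not hold for these data.

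The comparison, its 41 gene lists and the genes to name were chosen with earlier results of these data known. Named were up to 12 peaks and 12 dips with the largest smaller difference, no overlap of libraries and a mean of at least 50 in the higher group, the 4 higher and 4 lower genes between their neighbours with the largest difference, members of a list that were peaks or the 2 most abundant, and sex-linked genes and Aldh1l1 as checks. The other peaks, called members of a list, its exceptions, Malat1, genes just outside the threshold and genes that overlap a peak or dip were added after their values were seen, and lists given by counts alone had no member named. Some members are not reported here. Alternatives were edgeR (version 4.0.16) with TMM or DESeq2 size factors, DESeq2 (version 1.42.0), scaling by library totals or TMM, pseudocounts of 0.1 and 10, no filter, at least 10 reads in every library, only P7, P14 and P28, the replicate number as a block, interpolation in days, no adjustment, no fold threshold, and each library left out. A fit on the libraries with Xist above the Y-linked genes, at P7, P14 and P28, was added after seeing the data. Genes were placed with GENCODE M21 (GRCm38, the build of mm10), of which 23350 entries were found by symbol, a further 668 through older symbols, and 403 were not found. Promoters came from RefSeq, 250 bases before each start, and bases inside the GENCODE gene were not printed.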

Additional observations from a re-analysis of the deposited data

How the results depend on the processing

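Against 627 genes higher, 267 lower, 23 peaks and 3 dips, DESeq2 called 999, 452, 135 and 30, and an unadjusted p under 0.05 gave 1484, 742, 392 and 134. Libraries with Xist above the Y-linked genes gave 1538, 805, 46 and 10. Scaling by library totals gave 41 peaks, a pseudocount of 10 gave 52 peaks and 5 dips, and at least 10 reads in every library gave 50 and 7. Interpolation in days gave 515 genes lower, and 890 higher. With each library left out in turn, the counts ranged from 297 to 850 higher, 133 to 406 lower, 7 to 28 peaks and 0 to 6 dips. Counts moved by over 1.5 times without P14 replicate 1, 2 or 3 (365, 297 and 308 higher, 175, 142 and 134 lower, 7, 7 and 14 peaks, with 0 and 1 dips without the first and the second), without P7 replicate 1 or 3 (138 and 133 lower), without P28 replicate 1 or 3 (406 and 404 lower) and without P28 replicate 2 or 3 (6 and 5 dips). The other alternatives stayed within 1.5 times of each count, except that the replicate block gave 5 dips, with 591 genes higher, 237 lower and 27 peaks. Replicate numbers were treated as names only, since the deviations of libraries that share a number had correlations of -0.029 to 0.139. The cause of these changes was not tested. Of 93 named genes with an adjusted p under 0.05, 0 reversed in 2025 recomputed values, and 217 of these values were no longer under the threshold. Reversals were seen in genes not called: Pdgfra turned to -0.20 with interpolation in days and ranged from -0.015 to 0.24 with a library left out, Aldh1l1 turned to 0.071 and ranged from -0.25 to 0.022, and among the libraries with Xist above the Y-linked genes Xist turned to -0.15 and Hdc to 1.08. Hdc ranged from -1.91 to 0.57 with a library left out. Precision is limited by 3 libraries per age.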

Other observations

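Markers of blood vessels and of immune cells were present at low levels in these libraries. The counts of members below stand against 4.05% of all genes called higher, 1.73% called lower and 24.8% with a P14 mean above both neighbours. Of 15 endothelial markers, 1 was called higher, a share near that of all genes, which was Mfsd2a, the lipid transporter of the blood-brain barrier, with 381, 849 and 261 at P7, 1221, 669 and 1279 at P14 and 309.8, 419.9 and 509.8 at P28, and the P14 mean lay above both neighbours for 12 (median 0.93). The endothelial share was 0.0940 to 0.111% of counts at P14, against 0.0312 to 0.181% at P7 and 0.0512 to 0.0644% at P28. Of 9 mural cell markers, 2 were higher, the smooth muscle genes Acta2 (69.3, 319 and 114 at P7, 533, 523 and 703 at P14 and 83.3, 90.8 and 411 at P28) and Myh11 (51.8, 148 and 30.2 at P7, 581, 276 and 356 at P14 and 115, 68.4 and 293 at P28), with a median of 1.23. Of 16 microglia markers, 1 was higher, again near the 4.05% of all genes. Csf1r, the receptor microglia depend on, had 839, 760.4 and 595 at P7, 1242, 999 and 1365 at P14 and 794, 612 and 306 at P28 (adjusted p = 0.106, limma).

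MHC class II genes present antigen to T cells. Of 6 tested, 3 were higher (median 3.78) and lay above all 6 neighbour libraries, and as peaks 0 were called by limma after adjustment, 3 at an unadjusted p under 0.05, 0 by edgeR and 3 by DESeq2. H2-Aa had 5.57, 19.6 and 26.4 at P7, 94.3, 106 and 316 at P14 and 0, 0 and 1.35 at P28, H2-Eb1 had 2.39, 2.62 and 6.20 at P7, 54.0, 44.4 and 134 at P14 and 0, 0 and 0 at P28, and Cd74, the invariant chain, had 17.5, 23.6 and 20.2 at P7, 177, 332 and 456 at P14 and 24.8, 3.54 and 1.35 at P28. H2-Eb1 had no read at P28, so its P14 mean was at least 58.1-fold higher, by 3 reads over the group. Among the 3 ages compared, H2-Eb1 reached the filter value of 10 at P14 alone, so its call describes these libraries only. H2-Ab1, which with Cd74 was the most abundant of the list, had 27.1, 34.0 and 34.9 at P7, 303, 143 and 187 at P14 and 0, 423 and 27.0 at P28. It was not called (adjusted p = 0.194, limma), and a P28 library of H2-Ab1 stood above all those of P14. The mast cell protease genes Cpa3 (31.8, 19.6 and 54.3 at P7, 48.7, 176 and 174 at P14 and 0, 0 and 0 at P28) and Mcpt4 (28.7, 38.0 and 46.5 at P7, 67.8, 134 and 68.4 at P14 and 0, 0 and 0 at P28) were the 2 of 5 tested mast cell markers called higher. Hdc, the histidine decarboxylase that makes histamine, had 18.3, 10.5 and 28.7 at P7, 98.5, 11.6 and 2.17 at P14 and 134, 87.3 and 1.35 at P28, with a mean that was highest at P28 among the 3 ages (difference -0.59 ± 1.30 SE, adjusted p = 0.848, limma). Lcn2, the one neutrophil marker tested, had 2.39, 43.2 and 3.88 at P7, 56.1, 43.4 and 13.03 at P14 and no read at P28 (adjusted p = 0.0321, limma). Outside P14 it reached the filter value of 10 only in the P7 library with 43.2. It was thus tested because of the P14 libraries, and its call describes these libraries only. edgeR with TMM and DESeq2 called it higher, and edgeR with DESeq2 size factors did not. The share of the MHC class II genes was 0.00660 to 0.0114% at P14, 0.00133 to 0.00184% at P7 and 0.000428 to 0.00364% at P28.

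Of 7 tested genes of thyroid hormone transport and response, 2 were higher. Hr, a co-repressor induced by thyroid hormone, had 35.0, 45.8 and 40.3 at P7, 264, 336 and 624 at P14 and 74.5, 41.3 and 70.3 at P28 (difference 2.93 ± 0.47 SE, adjusted p = 0.00226, and joint adjusted p = 0.071, limma), and edgeR and DESeq2 each called 1 peak in this list. Klf9, a factor induced by the same hormone, had 705, 571 and 684 at P7, 1580.1, 1648 and 1858 at P14 and 1080.0, 1559 and 1494 at P28 (difference 0.85 ± 0.23 SE, adjusted p = 0.0394, limma). Of 24 immediate early genes, 2 were higher (median 0.62), Junb (215, 258 and 165 at P7, 419, 481 and 545 at P14 and 142, 118 and 201 at P28) and Klf4 (1549, 1628 and 1139 at P7, 1764, 1352 and 1570.3 at P14 and 387, 627 and 618 at P28). Mt2, a metallothionein, had 645, 123 and 253 at P7, 7569, 7046 and 11599 at P14 and 12235, 16102 and 17352 at P28, and was the 1 of 3 metallothioneins called higher. Of 77 cytosolic ribosomal protein genes tested, 5 were lower and the median was -0.46, with -0.95 from P7 and 0.05 from P28, and Rps15a, which led them, had 3081, 3480.0 and 3078 at P7, 893, 1214 and 926 at P14 and 1077, 1073 and 1758 at P28. Hsp90aa1, a chaperone, was -0.53 against P7 and -0.57 against P28, under the fold threshold (adjusted p = 0.0132, limma).

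Other lists had no call by limma after adjustment. By edgeR (both scalings), DESeq2 and an unadjusted p under 0.05 there were also 0 calls among the tested phagocytic microglia genes (7), lymphocyte markers (1), red blood cell markers (1), meningeal fibroblast markers (8) and ependymal markers (6). Among 10 interferon response genes, 5 complement genes and 7 border macrophage markers, 1 each was higher at an unadjusted p under 0.05, with 0 by edgeR and DESeq2. Of 11 heat shock and endoplasmic reticulum stress genes 1 was higher by DESeq2 and at an unadjusted p under 0.05, and 0 by edgeR. Of 43 collagens, 2 were higher by DESeq2, 1 by edgeR under each scaling and 7 at an unadjusted p under 0.05.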
